A study of Homo sapiens with 12 samples.

Results

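The beta-catenin pathway genes are 10 genes of canonical Wnt signalling, namely CTNNB1, CCND1, AXIN1, AXIN2, LEF1, TCF7L2, ZNRF3, GSK3B, APC and LRP6. They were matched by symbol to the Ensembl identifiers of 2 tables of read counts, each of which held 61906 genes, and all 10 were found in both tables. The RNA came from MOLM-14, a human acute myeloid leukemia cell line, in 2 experiments with 3 libraries per group and 12 libraries in all. In the knockdown experiment, cells carried a DDX5-targeting shRNA (shDDX5) or a control shRNA (shControl), both delivered by lentivirus with spinoculation, and were collected at 96 hours. In the drug experiment, cells received 100 nM RX-5902 or 0.1% DMSO for 6 hours. The labels call the libraries biological replicates, and no group was shared between the experiments. The knockdown groups held 1 shRNA against DDX5 and no rescue, so the loss of DDX5 and any other effect of that shRNA cannot be told apart.

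Beta-catenin, the product of CTNNB1, is made continuously and, without a Wnt signal, is held by the scaffold proteins AXIN1 and APC, phosphorylated by the kinase GSK3B and degraded. Wnt ligands bound to a Frizzled receptor and the co-receptor LRP6 stop this, and beta-catenin then enters the nucleus and acts with TCF7L2 or LEF1 on target genes such as CCND1 and AXIN2. DDX5 is an RNA helicase whose phosphorylated form has been described in other cells to bind beta-catenin and help it reach the nucleus, and RX-5902 has been described as a compound that acts on that form. The libraries measured RNA, so neither beta-catenin protein nor its place in the cell was measured.

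Total counts per library were 17603589 to 19674098 in the knockdown experiment and 20264250 to 20367575 in the drug experiment. DDX5 stood at 159, 164 and 161 CPM (counts per 1000000 counts of the library, TMM-scaled) in shDDX5 libraries, against 755, 718 and 729.5 CPM in shControl libraries. With RX-5902, DDX5 rose by 0.31 on the log2 scale (SE 0.04, edgeR adjusted p = 1.47e-08). Its paralog DDX17 stood at 413, 467 and 455 CPM in shDDX5 libraries, against 614.5, 595 and 592 CPM in shControl libraries, and fell by 0.43 on the log2 scale (SE 0.09, edgeR adjusted p = 0.00293), while with RX-5902 it rose by 0.15 (SE 0.04, edgeR adjusted p = 0.000491). Replicate 1 of shDDX5 stood apart from its group, with a chi-square per gene of 46.3 and 46.4 against replicates 2 and 3, where every other pair of replicates lay between 1.68 and 5.93. In that library, the shortest of 4 equal classes of genes by exon length lay above replicates 2 and 3 by a median of 0.25 (log2), and the longest class was at -0.27. All 10 myeloid markers checked averaged at least 1 CPM in every group. They summed to 13705 to 15073 CPM in shDDX5 and 4481 to 4830 CPM in shControl libraries, most of it LYZ, and to 1702 to 1735 CPM with RX-5902 and 1689 to 1713 CPM with DMSO. Single markers moved both ways: 6 of the 10 rose and 2 fell in shDDX5 cells, with LYZ at a log2 fold change of 1.92, PTPRC at -0.86 and FLT3 at -0.51. With RX-5902 3 rose and 6 fell, among them ITGAM (log2 fold change 1.26), PTPRC (0.92), MPO (-0.76) and LYZ (-0.54). The 13 markers of other cell types summed to 11.5 to 12.7 CPM in shDDX5, 6.31 to 6.71 CPM in shControl, 3.64 to 4.00 CPM with RX-5902 and 2.07 to 2.38 CPM with DMSO, and the defining genes MS4A1, HBB and PPBP were at 0 in all 12 libraries. The part of either marker sum in the results below was not tested, and in bulk RNA fewer cells of a type and less RNA per cell cannot be told apart.

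Of the 10 genes, 8 passed the filter on low counts in each experiment. CTNNB1 was the most abundant per kilobase of exon in every group, at 31.6 ± 1.95 CPM per kb in shDDX5, 20.5 ± 0.359 in shControl, 20.7 ± 0.174 with RX-5902 and 17.8 ± 0.750 with DMSO (mean ± SD, n = 3). The next places changed between groups. In shDDX5 libraries they went to GSK3B (5.50 CPM per kb), AXIN1 (4.40), APC (2.55), TCF7L2 (1.67), ZNRF3 (1.46), CCND1 (1.02) and LRP6 (0.261). From APC to CCND1, each gene overlapped the next in that order between libraries. In shControl libraries the order after CTNNB1 was CCND1 (5.40 CPM per kb), AXIN1 (4.51), GSK3B (3.55), APC (3.42), ZNRF3 (2.65), TCF7L2 (1.17) and LRP6 (0.423), and of these neighbours GSK3B and APC overlapped. With RX-5902 it was CCND1 (6.64 CPM per kb), APC (6.30), GSK3B (5.79), AXIN1 (4.35), TCF7L2 (3.24), LRP6 (1.59) and ZNRF3 (1.09), and CCND1 and APC overlapped. With DMSO it was CCND1 (6.43 CPM per kb), APC (5.04), AXIN1 (4.81), GSK3B (4.24), ZNRF3 (3.31), TCF7L2 (1.95) and LRP6 (1.79), and APC and AXIN1 overlapped. The lengths count every annotated exon base of a gene, so a level per kilobase is low for a gene whose long exons are little used. LRP6 averaged 0.423 CPM per kb in shControl and 1.79 CPM per kb in DMSO cells, which were handled and scaled in separate experiments, and this difference was not tested.

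**Figure D1:**
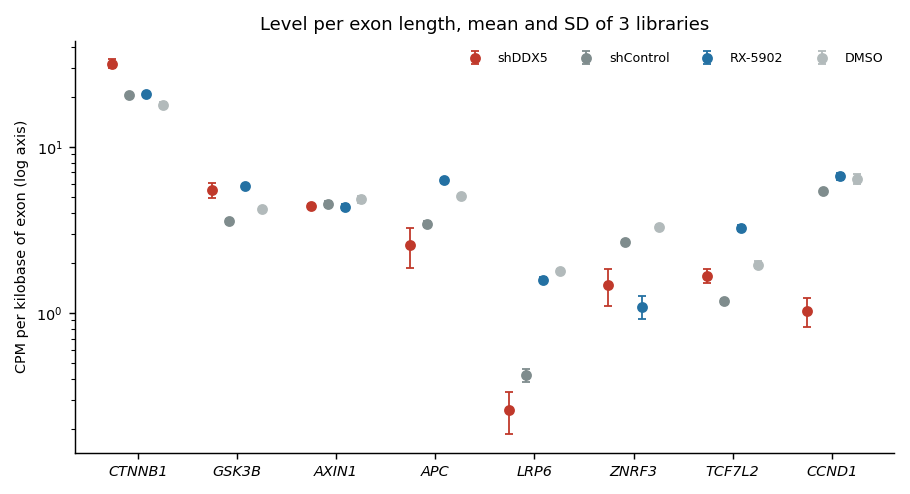
Level of the 8 genes that passed the filter, in CPM per kilobase of exon on a log axis. Points are means and bars the SD of 3 libraries per group. CTNNB1 is highest in all 4 groups, CCND1 is far lower in shDDX5 (1.02) than in the other groups, and LRP6 is lower in both groups of the knockdown experiment than in both groups of the drug experiment.

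AXIN2 and LEF1 did not pass the filter. AXIN2 is a feedback scaffold and one of the most widely used readouts of beta-catenin activity. It had 2, 7 and 4 counts in shDDX5 libraries, against 5, 7 and 6 counts in shControl libraries, and 0 counts in all RX-5902 and all DMSO libraries. AXIN2 shares 1316 of its 5197 exon bases with another protein-coding gene on its strand. These counts overlap in the knockdown experiment, and a count of 0 allows up to 3 counts, which is 0.144 to 0.145 CPM in an RX-5902 and 0.150 to 0.152 CPM in a DMSO library. LEF1, a DNA-binding partner of beta-catenin of lymphoid and progenitor cells, had 0 counts in all 12 libraries. Its relative TCF7 had at most 6 counts in any library and was not tested either. Another relative, TCF7L1, had 17, 11 and 16 counts in shDDX5 libraries, against 10, 6 and 6 counts in shControl libraries, and was called higher in the knockdown (log2 fold change 1.14, SE 0.34, edgeR adjusted p = 0.0202). It had at most 12 counts in any library of the drug experiment, was not tested there, and is named here after its values were seen. TCF7L2 was thus the only one of the 10 genes that encodes a DNA-binding partner and had enough counts for a test.

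The genes CTNNB1, GSK3B and TCF7L2 were higher in both experiments, and their promoters are shown for that reason. RefSeq's promoter table (GRCh38.p14) held 6 of the 10 genes with 9 promoters. The 250 bases before the RefSeq start are printed here in the direction of the gene, with GC boxes (GGGCGG or its reverse complement CCGCCC) in capitals. The CTNNB1 promoter is at chr3:41199255-41199504 on the plus strand, the GSK3B promoter at chr3:120094448-120094697 on the minus strand, and the promoter of the longest form of TCF7L2 at chr10:112949997-112950246 on the plus strand.
CTNNB1: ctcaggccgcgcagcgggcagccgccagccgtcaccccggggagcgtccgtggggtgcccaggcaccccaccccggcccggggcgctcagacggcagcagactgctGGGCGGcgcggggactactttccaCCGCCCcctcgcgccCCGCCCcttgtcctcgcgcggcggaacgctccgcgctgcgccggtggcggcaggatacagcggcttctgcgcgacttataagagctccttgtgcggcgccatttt
GSK3B: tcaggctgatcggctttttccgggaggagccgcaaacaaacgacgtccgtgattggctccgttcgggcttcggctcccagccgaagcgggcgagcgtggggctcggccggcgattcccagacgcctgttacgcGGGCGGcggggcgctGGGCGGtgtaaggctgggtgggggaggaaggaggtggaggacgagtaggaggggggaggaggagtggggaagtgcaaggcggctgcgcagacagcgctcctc
TCF7L2: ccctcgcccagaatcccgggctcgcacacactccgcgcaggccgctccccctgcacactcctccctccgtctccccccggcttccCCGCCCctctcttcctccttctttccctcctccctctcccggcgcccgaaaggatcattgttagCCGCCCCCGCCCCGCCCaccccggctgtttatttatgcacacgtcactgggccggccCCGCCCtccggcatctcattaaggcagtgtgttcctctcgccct
GC boxes numbered 3 in the CTNNB1, 2 in the GSK3B and 5 in the TCF7L2 window. Among the other promoters found, AXIN1 had 8, LEF1 had 2, APC had 0 and 1, and the further TCF7L2 promoters had 0. A GC box was present in 42.6% of the 35116 promoters of the same length in the table. The TCF/LEF core CTTTGA (or TCAAAG) was present in 11.2% of them and in 0 of the 9 promoters of these genes. The E-box CACGTG was present in 6.34% of all promoters and in 1 of the 9, a promoter of APC. Both strands were searched, and none of the 3 motifs contains another. A match of letters is a description only.

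Knockdown of DDX5 was accompanied by more RNA for beta-catenin and less for CCND1. In shDDX5 cells CTNNB1 was 1.54-fold higher and CCND1 5.27-fold lower than in shControl cells at 96 hours. The kinase gene GSK3B and the transcription factor gene TCF7L2 were higher as well, and both membrane genes, LRP6 and ZNRF3, were lower. AXIN1 and APC were not called. In all, edgeR's quasi-likelihood test called 6 of the 8 tested genes at a Benjamini-Hochberg adjusted p under 0.05, 3 higher and 3 lower, where 56.7% of all 14463 tested genes were called, 28.4% higher and 28.3% lower. Calls were thus common in the whole table. The groups did not overlap for 7 of the 8 genes, as for 66.1% of all tested genes.

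At the membrane, LRP6 encodes the co-receptor that carries the Wnt signal inward. It stood at 1.82, 3.06 and 3.24 CPM in shDDX5 libraries, against 4.18, 4.14 and 4.83 CPM in shControl libraries. The groups did not overlap, on 148 counts in all in shDDX5 and 266 in shControl libraries. Its log2 fold change was -0.69 (SE 0.22, edgeR adjusted p = 0.0267). ZNRF3, a ubiquitin ligase that removes Frizzled and LRP6 from the membrane, stood at 7.33, 12.3 and 11.0 CPM in shDDX5 libraries, against 19.1, 18.4 and 18.2 CPM in shControl libraries. Every shDDX5 library lay below every shControl library. The log2 fold change of -0.86 (SE 0.17, edgeR adjusted p = 0.00291) is a level 1.82-fold lower.

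In the destruction complex, GSK3B is the kinase that marks beta-catenin for degradation. It stood at 86.7, 107 and 101 CPM in shDDX5 libraries, against 66.0, 63.7 and 60.9 CPM in shControl libraries. All shDDX5 libraries lay above all shControl libraries (log2 fold change 0.63, SE 0.10, edgeR adjusted p = 0.000858). AXIN1, the scaffold on which the complex assembles, stood at 32.8, 34.2 and 32.4 CPM in shDDX5 libraries, against 32.8, 33.8 and 35.4 CPM in shControl libraries. The groups overlapped, and the log2 difference was -0.04 with a 95% interval of -0.22 to 0.15 (edgeR adjusted p = 0.719). It was 0.08 (adjusted p = 0.394) once each library's trend with gene length was taken out. APC, the large scaffold that is lost in many colon cancers, stood at 22.0, 36.7 and 36.7 CPM in shDDX5 libraries, against 44.2, 40.9 and 42.4 CPM in shControl libraries. The shDDX5 libraries lay below the shControl ones, with replicate 1 far below the others, and the log2 difference of -0.42 was not called (SE 0.18, edgeR adjusted p = 0.0799).

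CTNNB1 itself stood at 346, 378 and 390.5 CPM in shDDX5 libraries, against 239, 238 and 246 CPM in shControl libraries. The lowest shDDX5 library was well above the highest shControl library. Its log2 fold change was 0.62 (SE 0.08, edgeR adjusted p = 0.000358).

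TCF7L2, which binds DNA and recruits beta-catenin, stood at 12.4, 10.4 and 11.1 CPM in shDDX5 libraries, against 8.02, 8.08 and 7.60 CPM in shControl libraries. The groups did not overlap (log2 fold change 0.51, SE 0.11, edgeR adjusted p = 0.0043).

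CCND1 encodes cyclin D1, which drives cells from the G1 phase of the cell cycle into DNA replication, and is a known beta-catenin target. It stood at 3.81, 5.15 and 5.64 CPM in shDDX5 libraries, against 26.2, 25.3 and 25.6 CPM in shControl libraries. No other of the 8 genes differed as much in this experiment, with a log2 fold change of -2.40 (SE 0.14, edgeR adjusted p = 6.46e-06) on 266 counts in shDDX5 and 1559 in shControl libraries. CCND1 shares 497 of its 4761 exon bases with LTO1, a gene on the opposite strand whose log2 fold change was -0.71 (SE 0.10, edgeR adjusted p = 0.000415). Of the other D-type cyclins, CCND3 fell by 1.51 on the log2 scale (SE 0.12), and CCND2, which shares 999 of its 7988 exon bases with another gene on its strand, was at 0.18 (SE 0.11, edgeR adjusted p = 0.21).

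Without shDDX5 replicate 1, APC was called at -0.22 (edgeR adjusted p = 0.00276), LRP6 was at -0.48, and 3 genes rose and 4 fell. Calls were also more common in the whole table in that fit. There 10645 of 14916 tested genes were called, 5319 higher and 5326 lower, beside 8204 of 14463 with all libraries. The LRP6 call was lost without any 1 of the shControl replicates (adjusted p = 0.0612, 0.0565 and 0.0926 without replicates 1, 2 and 3), and APC was called in 1 fit of all 12 libraries (0.016).

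**Figure D2:**
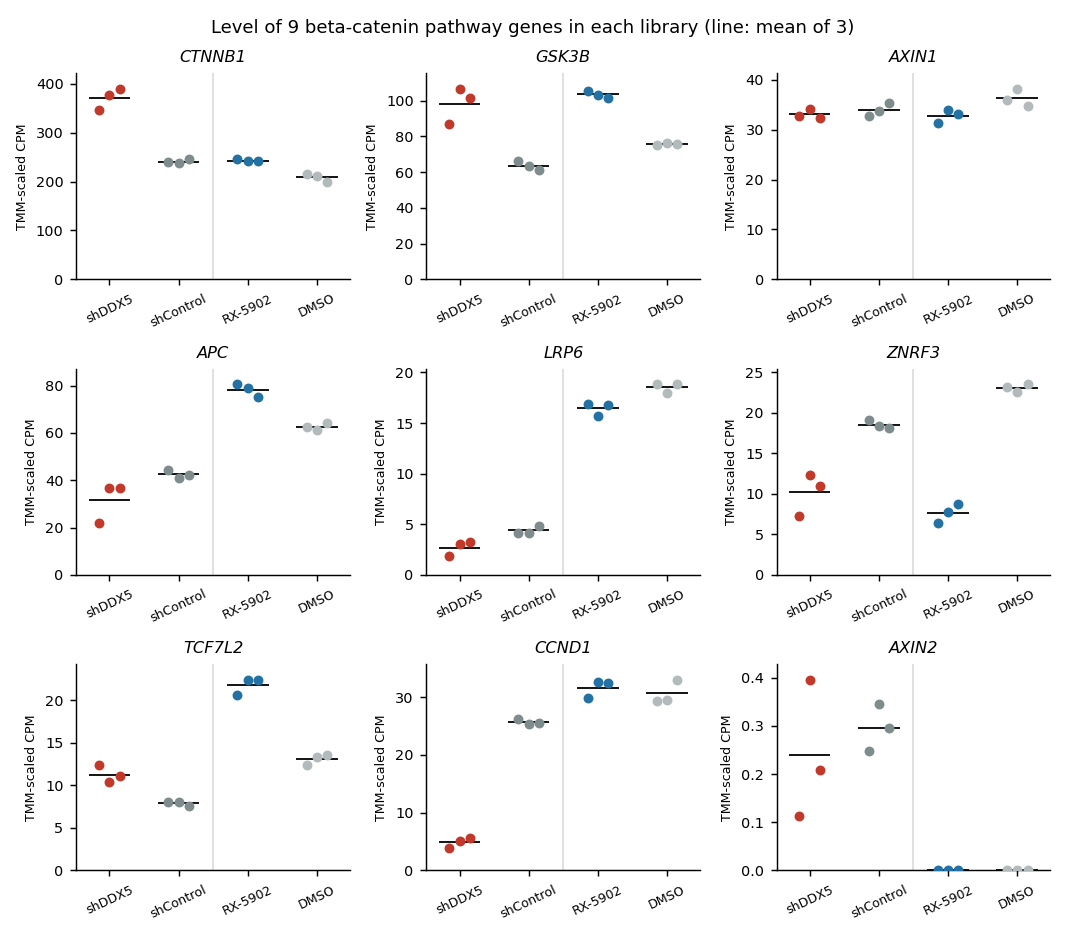
TMM-scaled CPM of 9 of the 10 genes in each library, with 3 points per group in the order of their replicate numbers and a line at the mean. LEF1, at 0 in all libraries, is left out. CCND1 stands at 3.81 to 5.64 CPM in shDDX5 libraries and above 25 CPM elsewhere, and ZNRF3 is lower in shDDX5 than in shControl and lower in RX-5902 than in DMSO.

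**Figure D3:**
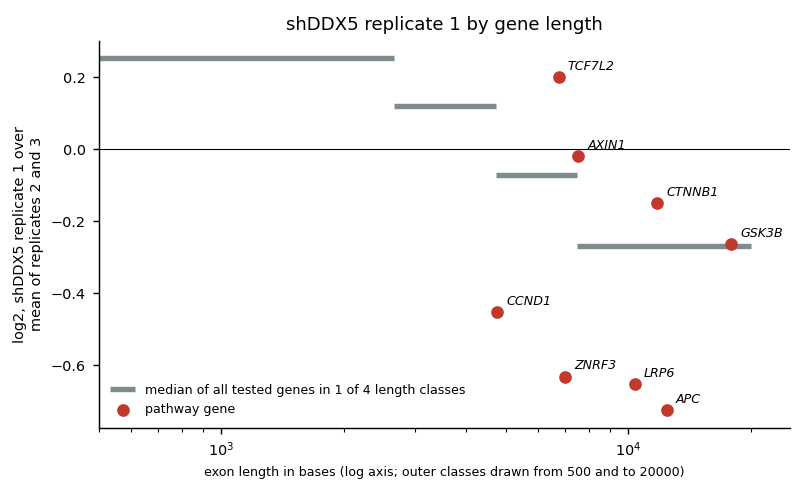
Level of shDDX5 replicate 1 over the mean of replicates 2 and 3 (log2) against exon length (log axis). Grey bars are medians of all tested genes in each of 4 length classes, at 0.25, 0.12, -0.07 and -0.27 from short to long, and red points are the 8 genes. APC (-0.73), LRP6 (-0.65), ZNRF3 (-0.63) and CCND1 (-0.45) lie below the median of their class, and TCF7L2 (0.20), AXIN1 (-0.02), CTNNB1 (-0.15) and, barely, GSK3B (-0.26) lie above.

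RX-5902 at 6 hours was accompanied by 3.04-fold less ZNRF3 RNA, while CCND1 stayed within the spread of the DMSO libraries. TCF7L2, GSK3B, APC and CTNNB1 were higher with RX-5902 than with DMSO, by 1.67-fold, 1.37-fold, 1.25-fold and 1.16-fold. AXIN1 and LRP6 were lower, by 1.11-fold and 1.13-fold. In all, edgeR called 7 of the 8 tested genes, 4 higher and 3 lower, where 64.1% of all 13941 tested genes were called, 32.2% higher and 31.9% lower. The groups did not overlap for 7 of the 8 genes, as for 67.4% of all tested genes.

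At the membrane, ZNRF3 stood at 6.37, 7.72 and 8.73 CPM in RX-5902 libraries, against 23.2, 22.6 and 23.6 CPM in DMSO libraries. Every RX-5902 library lay far below every DMSO library (log2 fold change -1.60, SE 0.09, edgeR adjusted p = 3.38e-17). The co-receptor gene LRP6 stood at 16.8, 15.7 and 16.8 CPM in RX-5902 libraries, against 18.9, 18.0 and 18.9 CPM in DMSO libraries. The groups did not overlap, but lay close together (log2 fold change -0.18, SE 0.07, edgeR adjusted p = 0.0303).

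In the destruction complex, GSK3B stood at 106, 103 and 101 CPM in RX-5902 libraries, against 75.0, 76.5 and 75.7 CPM in DMSO libraries. The gap between the groups was larger than the spread within either (log2 fold change 0.45, SE 0.04, edgeR adjusted p = 3.07e-11). APC stood at 80.7, 79.0 and 75.3 CPM in RX-5902 libraries, against 62.5, 61.3 and 64.1 CPM in DMSO libraries. All RX-5902 libraries were above all DMSO libraries (log2 fold change 0.32, SE 0.05, edgeR adjusted p = 2.08e-07). AXIN1 stood at 31.4, 33.8 and 33.1 CPM in RX-5902 libraries, against 35.9, 38.2 and 34.7 CPM in DMSO libraries. These groups did not overlap, with less than 1 CPM between the highest RX-5902 and the lowest DMSO library (log2 fold change -0.15, SE 0.06, edgeR adjusted p = 0.0275).

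CTNNB1 stood at 245, 242 and 242 CPM in RX-5902 libraries, against 216, 212 and 199 CPM in DMSO libraries. The RX-5902 libraries were all above the DMSO libraries (log2 fold change 0.22, SE 0.04, edgeR adjusted p = 1.25e-05). TCF7L2 stood at 20.7, 22.4 and 22.5 CPM in RX-5902 libraries, against 12.4, 13.4 and 13.6 CPM in DMSO libraries. It had the largest rise of the 8 genes in this experiment (log2 fold change 0.74, SE 0.07, edgeR adjusted p = 1.22e-10).

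The target gene CCND1 stood at 29.8, 32.6 and 32.5 CPM in RX-5902 libraries, against 29.3, 29.5 and 33.0 CPM in DMSO libraries. The groups overlapped, and the fold was 1.03 with a 95% interval of 0.946 to 1.13 (edgeR adjusted p = 0.533). Its overlapping neighbour LTO1 was at -0.15 (SE 0.08, edgeR adjusted p = 0.0794). Among the other D-type cyclins, CCND2 fell by 0.61 on the log2 scale (SE 0.06, edgeR adjusted p = 2.05e-10), and CCND3 was at -0.03 (SE 0.04).

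The 2 smallest falls depended on settings. AXIN1 was not called without DMSO replicate 2 (edgeR adjusted p = 0.132), without RX-5902 replicate 1 (0.112), with a filter of 5 CPM (0.074) or with DESeq2 (0.0777), and LRP6 was not called without DMSO replicate 1 (0.0617), without RX-5902 replicate 2 (0.139), with that filter (0.0638) or with DESeq2 (0.118). Neither was called in 1 fit of all 12 libraries (0.198 for AXIN1 and 0.331 for LRP6). Tested against a fold of 1.2 in place of no change, ZNRF3, TCF7L2 and GSK3B were called, and CTNNB1 (edgeR adjusted p = 0.944) and APC (0.0815) were not.

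The change of each gene in the knockdown experiment was then set against its change in the drug experiment. CCND1 differed most, with a difference of -2.46 between the log2 fold changes (SE 0.14, edgeR adjusted p = 6.75e-09), shDDX5 over shControl minus RX-5902 over DMSO. APC, at -0.42 in shDDX5 and at 0.32 in RX-5902 cells, differed by -0.76 (SE 0.18, adjusted p = 0.00289). ZNRF3 fell less in the knockdown, by a difference of 0.72 (SE 0.20, adjusted p = 0.00748), and CTNNB1 rose more, by 0.39 (SE 0.09, adjusted p = 0.00167). LRP6 differed by -0.54 (SE 0.19, adjusted p = 0.0318). In all, edgeR called this difference for 5 of the 8 genes, 2 higher and 3 lower, where 52.7% of all 15386 tested genes were called, 24.1% higher and 28.6% lower.

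For 3 genes the difference was not called, and its 95% interval was -0.11 to 0.29 for AXIN1, -0.51 to 0.03 for TCF7L2 and -0.05 to 0.37 for GSK3B. The agent, the time and the experiment all differ between the 2 changes and cannot be told apart. Without shDDX5 replicate 1, TCF7L2 was called at -0.31 (edgeR adjusted p = 0.0303), GSK3B at 0.25 (0.00106), and LRP6 was not (-0.31, 0.105). The LRP6 call was also lost without shControl replicate 3 (0.104), any 1 of the DMSO replicates (0.057, 0.0745 and 0.0569) or RX-5902 replicates 1 and 3 (0.0686 and 0.0671). With each library's length trend taken out, the difference was called for GSK3B (0.48, edgeR adjusted p = 0.000107) and AXIN1 (0.24, 0.0461). The difference was then 0.65 for CTNNB1 (1.45e-05) and was not called for LRP6 (-0.31, 0.123). Thus 4 genes were called higher and 2 lower, where 8348 of all 15386 tested genes were called, 4032 higher and 4316 lower.

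**Figure D4:**
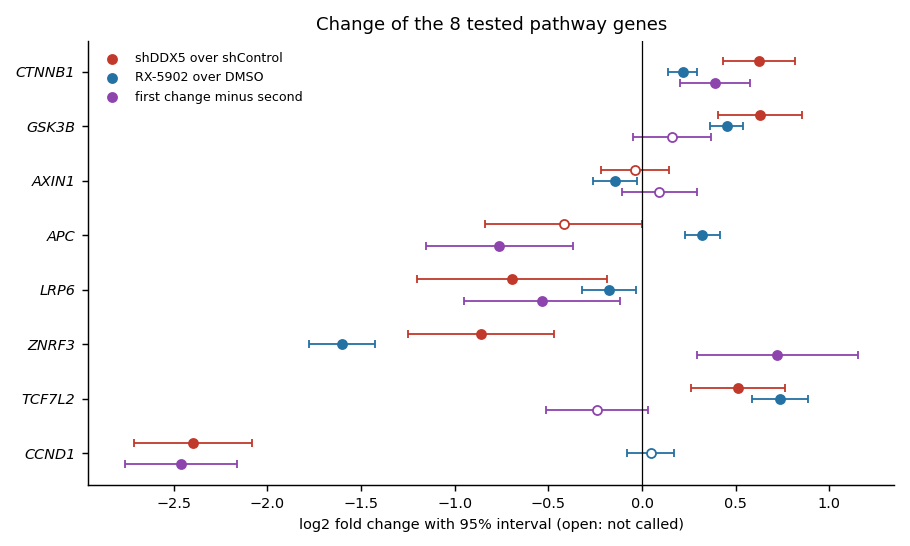
Log2 fold change of the 8 tested genes with 95% intervals, for shDDX5 over shControl (red), RX-5902 over DMSO (blue) and the first minus the second (purple). Open circles were not called at an adjusted p under 0.05. CCND1 is at -2.40 in the knockdown and 0.05 with RX-5902, while CTNNB1, GSK3B and TCF7L2 lie above 0 in both.

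The other genes of the pathway were described by 7 lists with 140 genes in all. In the knockdown 80 of them were tested, and 24 rose and 19 fell, or 53.8% called, close to the 56.7% of all genes. Their median log2 fold change was -0.06, beside -0.00071 for all tested genes. With RX-5902, 76 were tested, and 35 rose and 18 fell, or 69.7% called, beside 64.1% of all genes, with a median of 0.17 beside 0.012. Without shDDX5 replicate 1 the knockdown counts were 33 risen and 24 fallen of 81, where 10645 of all 14916 tested genes were called. With the length trend taken out, 8725 of all 14463 tested genes were called in the knockdown. These shares of all genes apply to the counts per list given below in those settings.

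Of 22 Wnt ligands and secretion genes, 15 were too low to test in the knockdown and 16 in the drug experiment. In shDDX5 cells 2 of 7 rose and 0 fell, the ligand genes WNT10B (log2 fold change 0.98) and WNT7B (0.54). With RX-5902, WNT7B fell by 1.13 and was the only one of 6 called. WNT7B stood at 42.0, 41.3 and 42.9 CPM in shDDX5 libraries, against 28.0, 28.4 and 30.4 CPM in shControl libraries, and at 9.21, 10.0 and 10.1 CPM in RX-5902 libraries, against 21.5, 22.0 and 20.8 CPM in DMSO libraries. Its groups did not overlap in either experiment, and the direction was opposite.

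Receptor genes moved both ways. In shDDX5 cells 4 of 10 rose and 4 fell, with the Frizzled receptors FZD2 (1.07), FZD5 (1.04) and FZD7 (1.23) and the receptor kinase ROR2 (1.39) among those that rose. ROR2 and FZD7 stood below 5 CPM in every library. With RX-5902, 1 of 9 rose, FZD2 (1.24), and 5 fell, among them the R-spondin receptor LGR4 (-0.74), FZD3 (-0.40) and LRP5 (-0.91). LRP5, the paralog of LRP6, stood at 30.9, 32.3 and 33.9 CPM in RX-5902 libraries, against 60.4, 63.4 and 58.8 CPM in DMSO libraries. In the knockdown LRP5 was at 20.8, 34.3 and 37.3 CPM in shDDX5 libraries, against 49.9, 53.6 and 54.7 CPM in shControl libraries, and fell by 0.77 (SE 0.19, edgeR adjusted p = 0.00898). Among secreted and membrane antagonists, 1 of 3 rose in shDDX5 cells, the LRP6 ligand gene DKK2 (0.72), and 2 of 3 rose with RX-5902, KREMEN1 (0.32) and DKK2 (0.30), while 0 fell in either experiment. In the knockdown 2 of the 3 rose without shDDX5 replicate 1, and likewise with the length trend taken out.

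Of the dishevelled and destruction complex genes, 5 of 24 rose and 7 fell in shDDX5 cells, and 13 rose and 6 fell with RX-5902. Without shDDX5 replicate 1, 8 rose and 8 fell in the knockdown, and with the length trend taken out 8 rose and 6 fell. GSK3A, the paralog of GSK3B, stood at 30.4, 26.0 and 26.6 CPM in shDDX5 libraries, against 54.0, 54.2 and 55.3 CPM in shControl libraries, and fell by 0.98 (SE 0.09, edgeR adjusted p = 5.01e-05). With RX-5902 GSK3A rose by 0.17 (SE 0.05, adjusted p = 0.00295). GSK3A and GSK3B moved in opposite directions in the knockdown and in the same direction with RX-5902, although GSK3A shares exon bases with a neighbour on its strand. In shDDX5 cells DVL2, a dishevelled protein that relays the Wnt signal, rose by 0.83, and NKD2, an inhibitor of dishevelled, and the deubiquitinase gene USP7 fell by 0.81 and 0.78. With RX-5902 NKD2 fell by 1.23 and AMER1, which brings APC to the membrane, by 1.65. The dishevelled antagonist DACT3 rose by 1.29 with RX-5902 and the tankyrase gene TNKS by 0.53. The priming kinase gene CSNK1A1 rose by 0.44 with RX-5902 and was at 0.20 in the knockdown (SE 0.11, edgeR adjusted p = 0.146). CSNK1A1 shares 4194 of its 8505 exon bases with a transcript on its strand, and how reads of shared bases were counted is not known.

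Of the nuclear cofactors and repressors, 5 of 19 rose and 3 fell in shDDX5 cells, and 10 of 18 rose and 2 fell with RX-5902. In shDDX5 cells BCL9, which links beta-catenin to its activators, rose by 1.29 and CTNNBIP1, which blocks its binding to TCF proteins, by 1.23, while the deacetylase gene HDAC1 fell by 1.31 and the Groucho co-repressor gene TLE1 by 0.77. With RX-5902 the acetyltransferase genes CREBBP (0.64) and EP300 (0.57) and the BCL9 relative BCL9L (1.19) rose, and TLE3 fell by 0.66. BCL9L shares 3913 of its 10788 exon bases with CXCR5 on the opposite strand, and CTNNBIP1 shares 424 of 3339 with an antisense gene. Without shDDX5 replicate 1, 8 of these genes rose and 6 fell in the knockdown. In that library EP300 stood at 73.8 CPM, beside 163 and 165 CPM in replicates 2 and 3 and 140.5, 144 and 148 CPM in shControl libraries.

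Of the catenins and cadherins, only 3 were tested. CTNND1, p120-catenin, rose by 1.97 in shDDX5 cells and by 0.82 with RX-5902, from levels of at most 1.53 CPM in any control library. It shares 5952 of its 15212 exon bases with an unnamed gene on its strand, so its values are uncertain. JUP, or gamma-catenin, the closest relative of beta-catenin, stood at 2.90, 3.16 and 2.57 CPM in RX-5902 libraries, against 0.505, 0.557 and 0.852 CPM in DMSO libraries, and rose by 2.16 (SE 0.23, edgeR adjusted p = 5.03e-10). In the knockdown JUP was at -0.34 (SE 0.24, adjusted p = 0.251). CTNNA1, alpha-catenin, rose by 0.36 with RX-5902. All 3 tested genes rose with RX-5902, where 32.2% of all tested genes were called higher. Against a fold of 1.2, 2 of the 3 were called with RX-5902. In shDDX5 cells 1 rose and 0 fell. The knockdown count was 2 risen without shDDX5 replicate 1, and likewise with the length trend taken out.

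The genes listed as known beta-catenin targets, a list without CCND1, AXIN2, LEF1 and ZNRF3, did not share a direction. In shDDX5 cells 6 of 14 rose and 5 fell, with a median of -0.0070, and with RX-5902 6 of 13 rose and 4 fell, with a median of 0.12. JUN, a subunit of AP-1, rose by 2.68 in shDDX5 cells and by 3.32 with RX-5902. MYC fell by 1.12 in shDDX5 cells and by 2.02 with RX-5902, and BIRC5, an inhibitor of apoptosis, fell by 2.29 in shDDX5 cells but rose by 0.32 with RX-5902. The nuclear receptor gene PPARD rose by 1.57 in the knockdown, and the differentiation inhibitor gene ID2 rose by 0.92 with RX-5902. CD44, a surface receptor, rose by 0.28 in shDDX5 cells and by 0.54 with RX-5902. Of the 31 listed targets, 17 were too low to test in the knockdown and 18 in the drug experiment. ZNRF3, described above with the membrane genes, was not on this list. Its log2 fold change was -0.86 in shDDX5 cells and -1.60 with RX-5902. Whether ZNRF3 acts as a beta-catenin target in these cells was not tested.

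**Figure D5:**
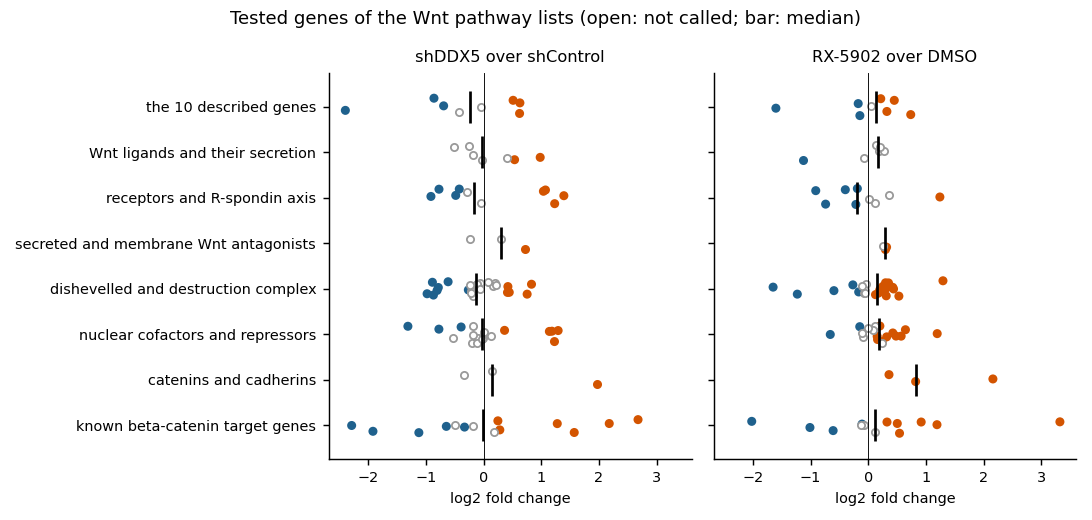
Log2 fold changes of the tested genes in each list, for shDDX5 over shControl at the left and RX-5902 over DMSO at the right. Orange points rose and blue points fell at an adjusted p under 0.05, open points were not called, and black bars mark the median of a list. Every list but the ligands, antagonists and catenins holds called genes on both sides of 0 in at least 1 of the experiments, and the target list spans -2.29 to 2.68 in the knockdown.

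The genes with the profile nearest to CTNNB1 over 12 libraries were TBC1D13, DPF2, OS9, PICALM and PSKH1, among 9449 protein-coding genes. The measure was the root mean square difference of log2 CPM, each profile centred on the control libraries of its experiment. It was 0.036 for TBC1D13 and 0.053 for PSKH1. Genes picked this way have similar fold changes by construction, so the values below only describe the choice. DPF2, a subunit of a chromatin remodeler, was at 0.60 in the knockdown and 0.25 with RX-5902, beside 0.62 and 0.22 for CTNNB1. The genes nearest to CCND1 were CLSPN, RRM1, FANCI, SMC1A and POLE, at root mean square differences of 0.079 to 0.13. CLSPN, a checkpoint protein of DNA replication, was at -2.40 in the knockdown and at -0.0042 with RX-5902, and RRM1, a subunit of ribonucleotide reductase, was at -2.28 and 0.07.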

How the data were processed

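RNA-seq counts were analysed for 12 libraries of MOLM-14 cells, 3 in each of 4 groups set by the labels. The authors deposited raw counts per gene, 1 table per experiment, not normalized. The submitters' processing notes list featureCounts with Subread 2.0.3 along with STAR 2.7.9a, Trim Galore 0.6.7 and Picard 2.8.0, and further DESeq2 1.46.0 with R 4.4.2 and the build GRCh38.p13. The strand setting, annotation release and treatment of multi-mapping reads are not given in the sources used here, so reads of overlapping genes cannot be told apart. Each table had a gene whose line was wrapped, and 2 continuation lines were rejoined. Symbols were found with the identifier's version for 59984 genes, without it for 1819 and not for 103.

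The tests were two-sided quasi-likelihood F tests in edgeR 4.0.16 (R 4.3.3), with TMM scaling and filterByExpr, on the 6 libraries of an experiment. A call needed an adjusted p (Benjamini-Hochberg, over every tested gene) under 0.05. The difference of the 2 changes came from 1 fit of 12 libraries with 4 group means. Standard errors were derived from the F statistic, and intervals are at 95%. Floors of 3 counts cover counting error only. The code was tested on simulated data. CPM values are TMM-scaled within an experiment. DESeq2 1.42.0 served as an alternative, beside other scaling, filters, a test against a fold of 1.2, a length trend, a replicate block, 1 fit of all libraries and leaving out each library. Replicates differed by more than sampling noise, so all were counted. The labels say nothing of shared batches.

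The 10 genes, the lists and the tests were chosen with earlier results of these data known, so none is independent support for a direction. Genes beyond the 10 were named by a rule: up to 4 called genes with the smallest p per list and experiment, a fixed set of paralogs and partners (MYC, CD44, TCF7, JUP, LRP5, CSNK1A1, GSK3A, CCND2, CCND3, LTO1, DDX5 and DDX17), and the 5 genes nearest in profile to CTNNB1 and to CCND1 with a mean of at least 5 CPM, after adding 0.5 CPM. Values of these genes in the other experiment were added for comparison.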

Additional observations from a re-analysis of the deposited data

How the results depend on the processing

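The direction of the 8 genes held under every alternative that gave a value, except that AXIN1 in the knockdown, -0.04, was at 0.0786 with the length trend taken out and at 0.0781 with the length trend and a replicate block together, and was called in neither. LRP6 in the knockdown has no value under the filter of 5 CPM, which it did not pass. The test against a fold of 1.2 in place of no change asks for a larger change and called fewer genes. With RX-5902 it called 3 of the 8 genes in place of 7 and 28 genes of the pathway lists in place of 53. All genes called there numbered 5190 in place of 8943. For the difference of the changes this test called 3 of the 8 genes in place of 5. In the knockdown it called 3 of the 8 genes higher and 2 lower, and LRP6 was no longer called. Of the pathway lists, 20 genes were then called higher and 14 lower in the knockdown, and 6378 of all genes were called in place of 8204. Leaving out 1 library at a time, 5 to 7 of the 8 genes were called in the knockdown, 6 to 7 with RX-5902 and 4 to 6 for the difference. Genes of the pathway lists then numbered 33 to 57, 49 to 53 and 39 to 56, and all genes called 6676 to 10645, 8413 to 8691 and 7461 to 9537. The highest of these in the knockdown came without shDDX5 replicate 1. No pairing of the samples by replicate number was seen. Deviations of same-numbered libraries correlated across genes at -0.06, -0.12 and 0.05 in the knockdown and -0.09, 0.02 and -0.11 in the drug experiment. With 3 libraries per group, this check cannot exclude a shared batch or preparation. With the number as a block, 6, 7 and 5 of the 8 genes were called in the 3 comparisons, and 7592, 8696 and 7626 of all genes in place of 8204, 8943 and 8108. Among single-gene values, 111 in the knockdown, 106 with RX-5902 and 144 for the difference kept their direction and their side of the threshold, while 4, 14 and 11 lost the call and 2, 0 and 5 gained it. The cause of these losses and gains was not tested. AXIN2, with at most 7 counts in a library, and LEF1, with 0, could not be tested at this depth.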
